A study of Mus musculus with 14 samples.

Results

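A set of 6 genes of hepatic sterol sensing and of the control of the low-density lipoprotein (LDL) receptor were followed in mouse liver, namely *Srebf2*, *Scap*, *Insig1*, *Insig2*, *Stard4* and *Mylip*. They were taken from the deposited count table by gene symbol, and all 6 of them were found among the 25212 genes listed. Cells hold their cholesterol steady through a feedback loop in the endoplasmic reticulum. The transcription factor SREBP-2, encoded by *Srebf2*, is carried to the Golgi by the sterol-sensing escort SCAP when sterol is scarce, is cut there, and its freed domain switches on genes of cholesterol synthesis and uptake, whereas the INSIG proteins hold SCAP back when sterol is plentiful. Liver is the main organ of cholesterol synthesis and of LDL clearance. The ubiquitin ligase MYLIP (also called IDOL) marks the LDL receptor for degradation, and its gene is induced through the oxysterol receptors LXR in many tissues, though little of that induction is known in mouse liver.

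Liver RNA had been sequenced from 14 male C57BL/6 mice with diet-induced obesity, 1 library per liver, to ask how diverting bile compares with gastric bypass in its effect on the liver. All mice ate a high-fat diet (HFD) before the operations and up to the end of the study. The DIO group (n = 5) had no surgery, not even a sham operation. In the GB-IL group (n = 4) the gallbladder had been joined to the ileum, so that bile entered the distal small intestine, and the RYGB group (n = 5) had undergone Roux-en-Y gastric bypass. The labels place all livers 8 weeks after surgery, or after no surgery in DIO, and give no age. Nothing in the labels says that livers with the same number were handled together. The p-values below for differences between groups weigh them against the spread between these livers.

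Each liver gave between 18223135 and 28656631 counts. Levels are given as counts relative to the library total (CPM) scaled by the TMM method of edgeR, and differences as log2 fold changes with standard errors from 1 edgeR quasi-likelihood fit of all 14 livers over the 14252 genes with enough counts, with p-values adjusted over all of these genes (Benjamini-Hochberg) at a false discovery rate (FDR) of 0.05. Both operations were compared with the same DIO livers, so these comparisons are not independent. The fit shares its estimate of spread per gene over all groups. Fitted by group, the common biological coefficient of variation was 0.244 in DIO, 0.541 in GB-IL and 0.295 in RYGB. The spread of the GB-IL livers therefore also enters the errors of RYGB against DIO. The livers expressed their defining markers, with 8 hepatocyte genes summing to between 110969 and 167226 CPM in every liver. GB-IL livers were uneven. On the first principal component, GB-IL livers 1 and 2 lay at 134 and 106 and GB-IL liver 4 at -35.3, inside the DIO range of -45.7 to -21.9. Liver 1 of that group also held 1228 CPM of pancreas and 1047 CPM of skeletal muscle marker genes, against at most 36.7 and 2.81 CPM in any other liver. Cholangiocyte markers summed to 60.2 to 297 CPM with GB-IL and to 32.2 to 64.5 CPM without surgery. For neutrophil markers these ranges were 1.99 to 281 and 2.00 to 4.46 CPM, and for stellate cell and fibroblast markers 237 to 823 and 155 to 276 CPM. Among RYGB livers, liver 5 stood apart with 83.9 CPM of neutrophil, 543 CPM of sinusoidal endothelium and 519 CPM of stellate cell and fibroblast markers, against at most 6.80, 259 and 310 CPM in the other 4. The same liver had the highest hepatocyte sum of all livers (167226 CPM) and the highest red cell sum of its group (2047 CPM). The part of these cell types in the levels of the 6 genes was not tested. In whole liver a change in the share of a cell type and a change in RNA per cell cannot be told apart.

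The 6 genes spanned a wide range of abundance. Per kilobase of annotated exon, over all 14 livers, *Insig1* had the highest mean level at 88.9 CPM per kb, followed by *Insig2* at 53.1, *Stard4* at 17.1, *Scap* at 13.6, *Srebf2* at 8.96 and *Mylip* at 5.08 CPM per kb. *Insig1* lay above *Insig2* in 12 of 14 livers, and *Insig2* above *Stard4* in 13. *Stard4* and *Scap* were the neighbours that the livers did not separate, since *Stard4* was the higher in only 9 of 14. *Scap* was above *Srebf2* in 12 livers and *Srebf2* above *Mylip* in 13. Even *Mylip*, the rarest, was counted at least 160 times in each liver, so counting error was small beside the difference between livers.

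In neither operation did any of the 6 genes pass the FDR. With GB-IL, 0 of 6 were called against 3.26% of all genes tested, and with RYGB 0 of 6 against 0% of all genes. At an unadjusted p below 0.05 from the same edgeR fit there was 1 of 6 in GB-IL against 23.1% of all genes, and 1 of 6 in RYGB against 8.71%, which was *Srebf2* in both. Between GB-IL and RYGB 0 of 6 passed the FDR, where 0% of all genes did, and 0 of 6 had an unadjusted p below 0.05, where 22.1% did. The livers of the 2 groups overlapped for every one of the genes in all 3 comparisons, whereas they did not overlap for 4.17% of genes between GB-IL and DIO, 3.53% between RYGB and DIO and 2.84% between GB-IL and RYGB.

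By direction, 5 of the 6 had a positive log2 fold change in GB-IL, as did 53.1% of all genes tested. In RYGB 6 of 6 were positive, as were 51.5% of all genes, with *Mylip* at only 0.04. The median was 0.39 in GB-IL and 0.44 in RYGB, beside 0.04 and 0.01 over all genes tested. When GB-IL livers 1 and 2 were left out, *Srebf2*, *Scap* and *Mylip* turned negative in GB-IL and *Stard4* turned positive. Between the operations 1 of 6 was higher in GB-IL, *Mylip*, beside 52.5% of all genes. The median difference was -0.16, beside 0.03 over all genes. DESeq2 and edgeR's exact test also called 0 of 6 in each comparison. Of all genes, DESeq2 called 1292 in GB-IL, 97 in RYGB and 845 between the operations, and the exact test 1127, 43 and 678. With voom weighted by sample quality (limma), a fit that gives less weight to livers that deviate, 4 of 6 passed the FDR in RYGB, namely *Srebf2*, *Scap*, *Insig1* and *Stard4*, where that fit called 1690 of all genes. RYGB liver 5 had the highest neutrophil, endothelial and hepatocyte sums of its group. In RYGB it had the lowest level of *Srebf2*, *Scap*, *Insig1* and *Stard4* and the highest of *Mylip*. Without it the log2 fold changes of *Srebf2*, *Scap* and *Insig1* in RYGB against DIO were 0.91, 0.44 and 1.04 by edgeR. That of *Mylip* was -0.20, and 0 of 6 passed the FDR. The part of the marker sums in the levels of this liver was not tested, nor was the part of this liver in the voom calls.

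**Figure D1:**
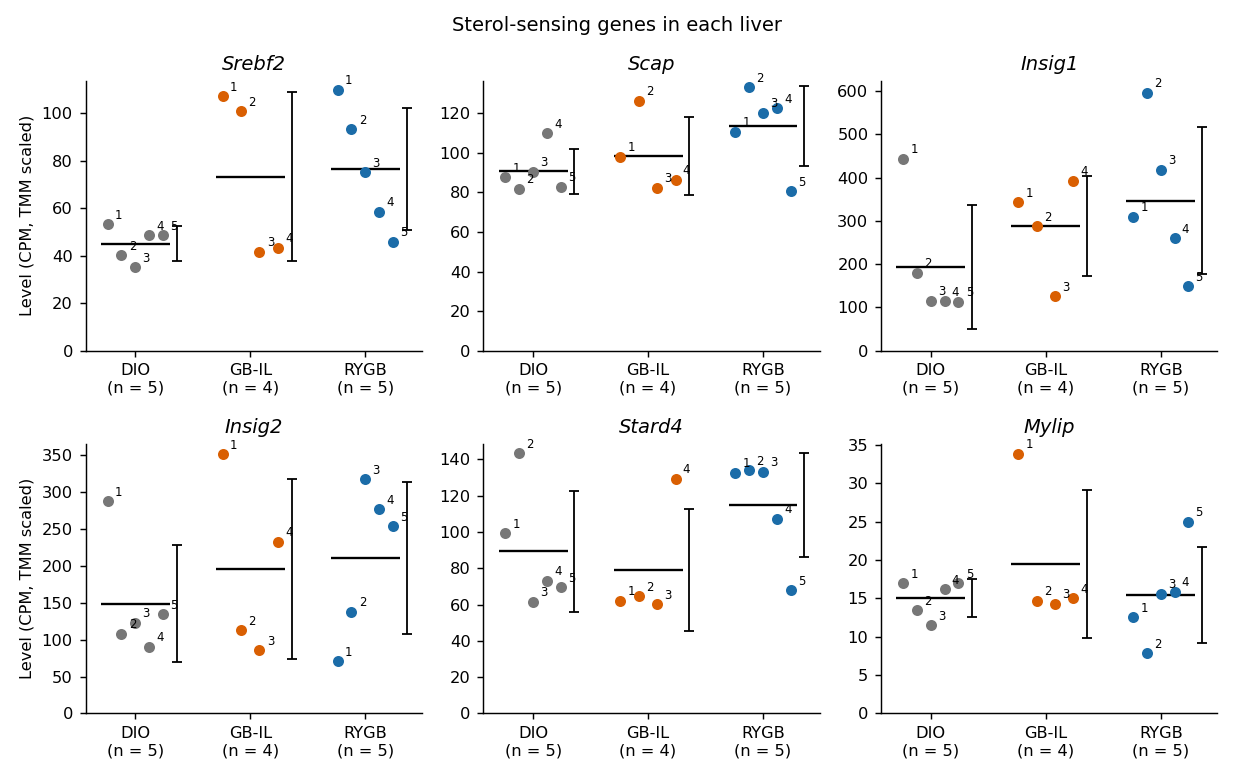
Level of each gene in each liver, in CPM scaled by TMM on a linear axis from 0, for DIO (grey), GB-IL (orange) and RYGB (blue). Points are livers with their number beside them, horizontal lines are group means and bars are 1 SD to either side. The groups overlap in every panel, *Insig1* and *Insig2* have a high DIO liver 1, and *Mylip* has a high GB-IL liver 1.

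*Srebf2* (ENSMUSG00000022463, chromosome 15, 82147181 to 82205379 on the plus strand, GRCm38, GENCODE M21) encodes SREBP-2, the factor that the loop controls. DIO livers 1 to 5 had 53.2, 40.2, 35.2, 48.5 and 48.6 CPM. GB-IL livers 1 to 4 had 107, 101, 41.8 and 43.3 CPM. RYGB livers 1 to 5 had 110, 93.4, 75.2, 58.5 and 45.8 CPM. The DIO livers were close together, the GB-IL livers fell into a high pair and a low pair inside the DIO range, and the RYGB livers were spread evenly, with 4 of 5 above every DIO liver. DIO livers averaged 45.1 ± 7.29 CPM (SD, n = 5), GB-IL livers 73.3 ± 35.6 CPM (SD, n = 4) and RYGB livers 76.5 ± 25.8 CPM (SD, n = 5). Compared with DIO, the log2 fold change with GB-IL was 0.70 (standard error 0.313, 95% interval 0.03 to 1.37, edgeR adjusted p = 0.201) and with RYGB 0.76 (standard error 0.298, 95% interval 0.13 to 1.40, edgeR adjusted p = 0.516). The direct difference between GB-IL and RYGB was -0.06 (95% interval -0.73 to 0.61).

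The high pair of GB-IL livers were livers 1 and 2, the same that stood apart on the first principal component. With both left out, the log2 fold change of *Srebf2* in GB-IL was -0.11 (edgeR adjusted p = 0.987), and in RYGB, where they are not compared, it was 0.76 (edgeR adjusted p = 0.159). By the voom fit with sample quality weights it was 0.16 in GB-IL and 0.67 in RYGB (limma adjusted p = 0.0314). *Srebf2* hosts the microRNA gene *Mir33* and overlaps *Gm49502* on the same strand, and reads from the shared bases cannot be assigned to one of them.

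The promoter of *Srebf2* is shown with that of *Insig1*, which is itself a target of SREBP-2 and closes the loop, and that of *Mylip*, an LXR target in tissues other than mouse liver. Each sequence is the 250 bases before the RefSeq start (GRCm38.p6), written 5′ to 3′ on the strand of the gene. These are chr15:82147019-82147268 on the plus strand for *Srebf2*, chr5:28071162-28071411 on the plus strand for *Insig1* and chr13:45389492-45389741 on the plus strand for *Mylip*. The GENCODE M21 starts of *Srebf2* (82147181) and *Insig1* (28071363) differ from the RefSeq starts and fall inside these windows. The last part of both windows therefore lies within the gene as GENCODE annotates it. Capitals mark matches, on either strand, to the core TCACCCCA, the E-box CACGTG, the NF-Y box CCAAT or the Sp1 box GGGCGG.
Srebf2: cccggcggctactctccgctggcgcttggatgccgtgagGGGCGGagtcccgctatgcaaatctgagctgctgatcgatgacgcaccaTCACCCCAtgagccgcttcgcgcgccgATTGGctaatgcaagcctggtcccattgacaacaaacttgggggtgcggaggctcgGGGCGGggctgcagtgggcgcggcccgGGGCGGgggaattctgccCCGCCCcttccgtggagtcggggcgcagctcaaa
Insig1: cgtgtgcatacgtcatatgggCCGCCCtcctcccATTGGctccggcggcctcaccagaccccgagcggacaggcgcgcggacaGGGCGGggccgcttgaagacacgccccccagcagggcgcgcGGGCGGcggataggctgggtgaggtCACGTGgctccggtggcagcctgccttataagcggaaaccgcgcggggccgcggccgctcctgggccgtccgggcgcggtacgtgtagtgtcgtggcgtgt
Mylip: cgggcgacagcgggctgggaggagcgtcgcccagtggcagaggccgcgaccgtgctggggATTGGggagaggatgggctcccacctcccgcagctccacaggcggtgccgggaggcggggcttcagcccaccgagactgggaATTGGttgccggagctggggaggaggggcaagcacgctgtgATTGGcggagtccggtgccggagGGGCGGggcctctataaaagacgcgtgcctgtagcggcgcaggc

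The letters searched were those of a classical sterol regulatory element (TCACNCCAC), its shorter core TCACCCCA, the E-box CACGTG, the NF-Y box CCAAT and the Sp1 box GGGCGG. TCACCCCA was added after the promoters had been seen, and overlaps the first motif where the unspecified base is C. The *Srebf2* promoter held 1 TCACCCCA, from 162 to 155 bases before the start, 1 CCAAT and 4 GGGCGG. That of *Insig1* held 1 CACGTG, 1 CCAAT and 3 GGGCGG. That of *Mylip* held 3 CCAAT and 1 GGGCGG. In the promoters of *Srebf2*, *Insig1*, *Mylip*, *Scap* and *Insig2*, TCACNCCAC had no match, and TCACCCCA matched only in *Srebf2*. Of all 32851 promoters of this length in the table, 1.05% held TCACNCCAC, 1.34% TCACCCCA, 6.02% CACGTG, 33.8% CCAAT and 32.7% GGGCGG. Of the remaining genes, the table listed 2 promoters for *Scap*, of which 1 held a CACGTG and a GGGCGG, and 3 for *Insig2*, of which 1 held 3 CCAAT and each of the others 1 GGGCGG. The *Stard4* promoter was not used here. Some windows of *Scap* and *Insig2* also lie partly or wholly inside the gene as GENCODE annotates it. Matches describe the letters only, and the counts do not say which start the transcripts used.

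*Scap* (ENSMUSG00000032485, chromosome 9, 110333288 to 110384950, plus strand) encodes the escort that senses sterol. Its DIO livers 1 to 5 had 87.6, 81.8, 90.4, 110 and 82.9 CPM. GB-IL livers 1 to 4 had 97.9, 126.3, 82.4 and 86.4 CPM. RYGB livers 1 to 5 had 111, 133, 120, 123 and 80.4 CPM. *Scap* was the steadiest of the genes, with a coefficient of variation of 12.5% in DIO, 20.2% in GB-IL and 17.7% in RYGB, and in RYGB 4 of 5 livers lay above every DIO liver and liver 5 below all of them. Compared with DIO, the log2 fold change with GB-IL was 0.12 (standard error 0.184, edgeR adjusted p = 0.702) and with RYGB 0.32 (standard error 0.174, 95% interval -0.05 to 0.70, edgeR adjusted p = 0.618). GB-IL and RYGB differed by -0.21 (95% interval -0.60 to 0.19). The gene overlaps *5830462I19Rik* on the opposite strand, and the strand setting of the counting is not given in the sources used here.

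*Insig1* (ENSMUSG00000045294, chromosome 5, 28071363 to 28078662, plus strand) encodes the INSIG protein whose gene is switched on by SREBP-2. DIO livers 1 to 5 had 444, 180, 116, 114 and 114 CPM. GB-IL livers 1 to 4 had 343, 288, 126.3 and 393 CPM. RYGB livers 1 to 5 had 310, 596, 418, 260 and 149 CPM. DIO liver 1 stood far above the other 4 DIO livers and above every GB-IL liver. The remaining DIO livers were lower than 3 of the 4 GB-IL livers and than 4 of the 5 RYGB livers. DIO livers averaged 193 ± 143 CPM (SD, n = 5), GB-IL livers 287 ± 116 CPM (SD, n = 4) and RYGB livers 347 ± 170 CPM (SD, n = 5). Compared with DIO, the log2 fold change with GB-IL was 0.57 (standard error 0.475, 95% interval -0.44 to 1.58, edgeR adjusted p = 0.452) and with RYGB 0.84 (standard error 0.453, 95% interval -0.12 to 1.81, edgeR adjusted p = 0.620), the largest of the 6 genes in RYGB.

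*Insig1* depended on DIO liver 1 more than on any other liver. Without it the value was 1.14 in GB-IL (edgeR adjusted p = 0.155) and 1.41 in RYGB (edgeR adjusted p = 0.326). By voom with sample quality weights it was 1.36 in RYGB (limma adjusted p = 0.0257). The total count of DIO liver 1 (19493070) and its sum of hepatocyte markers (134915 CPM) were inside the range of the other DIO livers, while its cholangiocyte sum of 64.5 CPM and its stellate cell and fibroblast sum of 276 CPM were the highest of its group. The part of either in the *Insig1* level was not tested. GB-IL and RYGB differed by -0.27 on the log2 scale (95% interval -1.29 to 0.75).

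*Insig2* (ENSMUSG00000003721, chromosome 1, 121304353 to 121332589, minus strand) encodes the second INSIG protein, whose gene is not under SREBP-2 in the way of *Insig1* and has a transcript particular to liver. DIO livers 1 to 5 had 287, 108, 123, 90.5 and 135 CPM. GB-IL livers 1 to 4 had 352, 113, 85.5 and 233 CPM. RYGB livers 1 to 5 had 70.6, 138, 317, 277 and 254 CPM. DIO liver 1 was again the high liver of its group, and in RYGB livers 3, 4 and 5 were high and liver 1 was the lowest of all 14. Compared with DIO, the log2 fold change with GB-IL was 0.40 (standard error 0.482, 95% interval -0.63 to 1.43, edgeR adjusted p = 0.614) and with RYGB 0.51 (standard error 0.458, 95% interval -0.47 to 1.48, edgeR adjusted p = 0.786). Without DIO liver 1 these were 0.78 and 0.90 (edgeR adjusted p = 0.344 and 0.599). Without GB-IL liver 1 the value in GB-IL was -0.05. GB-IL and RYGB differed by -0.11 on the log2 scale (95% interval -1.14 to 0.92), and *Gm37174* overlaps the gene on the opposite strand.

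**Figure D2:**
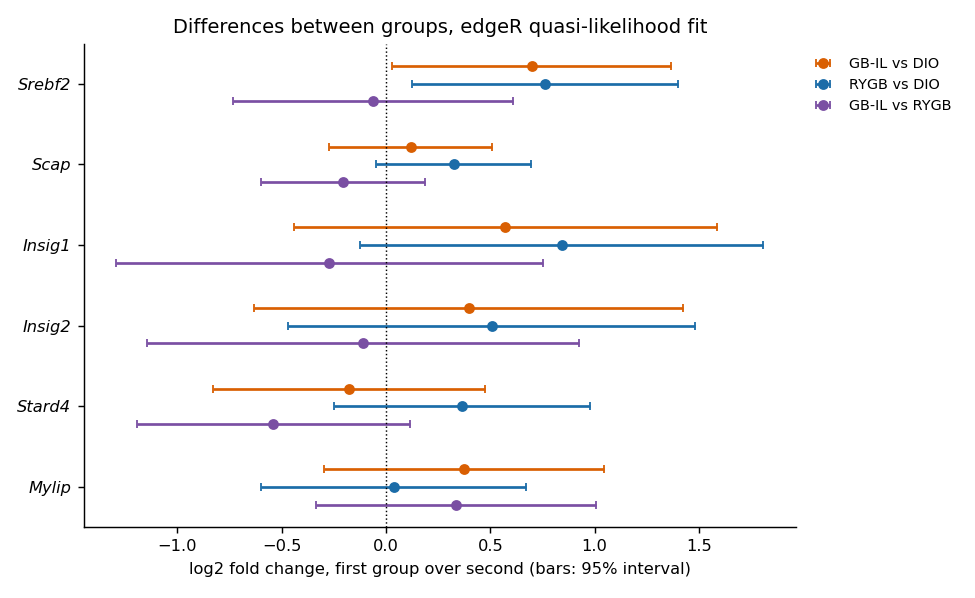
Log2 fold change of each gene in the 3 comparisons, as points, with 95% intervals from the edgeR quasi-likelihood fit as bars. The interval lies above 0 for *Srebf2* in GB-IL and in RYGB compared with DIO and includes 0 for all other values, and the intervals of *Insig1* and *Insig2* are the widest.

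The ratio of *Insig1* to *Insig2* varied from liver to liver. In DIO the log2 ratio of *Insig1* to *Insig2* ranged from -0.24 to 0.74, and in GB-IL from -0.03 to 1.35. In RYGB it was 2.14 in liver 1, 2.11 in liver 2, 0.40 in liver 3, -0.09 in liver 4 and -0.77 in liver 5. On a linear scale the RYGB livers ran from 4.39 down to 0.588, and the DIO livers from 1.67 down to 0.844. The ratio is of CPM and is not scaled by length (3093 and 3473 bases of annotated exon), so it is compared between livers only. Mean log2 ratios were 0.27 ± 0.43 (SD, n = 5) in DIO, 0.66 ± 0.57 (SD, n = 4) in GB-IL and 0.76 ± 1.31 (SD, n = 5) in RYGB. By exact two-sided permutation tests the group means did not differ significantly for GB-IL against DIO (difference 0.38, p = 0.270), RYGB against DIO (difference 0.48, p = 0.421) or GB-IL against RYGB (difference -0.10, p = 0.921), with adjusted p-values over the 6 tests of both ratios of 0.738, 0.738 and 0.921. Because RYGB livers 1 and 2 lie on one side and livers 4 and 5 on the other, the RYGB mean describes no single liver.

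The log2 ratio of the summed *Insig1* and *Insig2* CPM to *Scap*, a measure of INSIG mRNA relative to SCAP mRNA that is not scaled by length either, was between 0.90 and 3.06 in DIO. GB-IL livers held 1.36 to 2.86 and RYGB livers 1.78 to 2.61. DIO liver 1 had the highest ratio of all 14 livers, and the remaining DIO livers lay at or below 1.82. The RYGB livers were the closest together, at 2.26 ± 0.32 (SD, n = 5), compared with 2.18 ± 0.78 (SD, n = 4) in GB-IL and 1.75 ± 0.81 (SD, n = 5) in DIO. In exact two-sided permutation tests the difference was 0.43 for GB-IL against DIO (p = 0.492, adjusted p = 0.738), 0.51 for RYGB against DIO (p = 0.238, adjusted p = 0.738) and -0.09 for GB-IL against RYGB (p = 0.825, adjusted p = 0.921). Without DIO liver 1 the difference for RYGB against DIO was 0.84 (exact permutation p = 0.0318, adjusted p = 0.191). The ratios are of mRNA and do not measure the proteins.

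**Figure D3:**
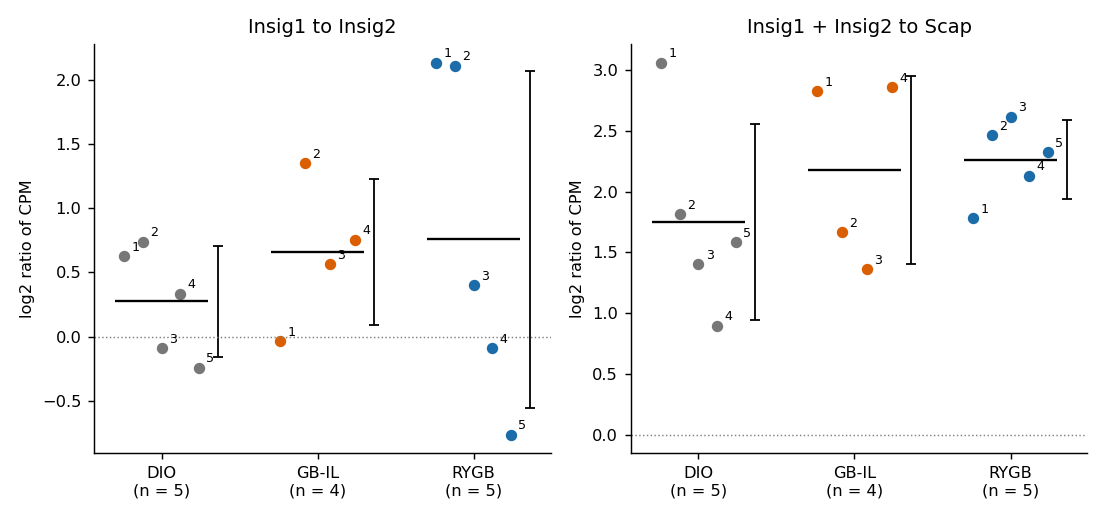
Log2 ratio of CPM per liver, of *Insig1* to *Insig2* (left) and of *Insig1* plus *Insig2* to *Scap* (right). Points are livers with their number, lines are group means and bars are 1 SD to either side. RYGB livers 1 and 2 lie above 2.0 and RYGB livers 4 and 5 below 0 on the left, and DIO liver 1 is the highest on the right at 3.06.

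*Stard4* (ENSMUSG00000024378, chromosome 18, 33199355 to 33213862, minus strand) encodes a soluble sterol carrier that moves cholesterol between the plasma membrane and the endoplasmic reticulum, and is itself induced by SREBP-2. DIO livers 1 to 5 had 99.3, 143, 61.6, 73.2 and 69.7 CPM. GB-IL livers 1 to 4 had 62.2, 64.8, 60.2 and 129 CPM. RYGB livers 1 to 5 had 133, 134, 133, 107 and 67.8 CPM. In GB-IL, livers 1, 2 and 3 were within a few CPM of each other and near the bottom of the DIO range, and liver 4 was apart from them. In RYGB, livers 1, 2 and 3 were nearly identical and close to the top of the DIO range. DIO livers averaged 89.4 ± 33.3 CPM (SD, n = 5), GB-IL livers 79.1 ± 33.5 CPM (SD, n = 4) and RYGB livers 115 ± 28.7 CPM (SD, n = 5).

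*Stard4* was the only one of the genes with log2 fold changes of opposite sign in the 2 operations, -0.18 in GB-IL (standard error 0.305, edgeR adjusted p = 0.732) and 0.36 in RYGB (standard error 0.287, edgeR adjusted p = 0.749). The direct difference of GB-IL from RYGB was -0.54 (standard error 0.307, 95% interval -1.19 to 0.12, edgeR adjusted p = 0.303). Without GB-IL liver 4 this difference was -0.89 and passed the FDR (edgeR adjusted p = 0.0425), where the same fit called 3120 of all genes. That liver lay within the DIO livers on the first principal component. Without DIO liver 2 the value in GB-IL compared with DIO was 0.05.

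*Mylip* (ENSMUSG00000038175, chromosome 13, 45389742 to 45412022, plus strand) encodes the ubiquitin ligase that takes the LDL receptor out of use. DIO livers 1 to 5 had 17.0, 13.4, 11.5, 16.2 and 17.0 CPM. GB-IL livers 1 to 4 had 33.9, 14.7, 14.3 and 15.01 CPM. RYGB livers 1 to 5 had 12.6, 7.89, 15.6, 15.9 and 25.0 CPM. GB-IL livers 2, 3 and 4 lay inside the DIO range, and GB-IL liver 1 was the highest of all 14. Compared with DIO, the log2 fold change with GB-IL was 0.37 (standard error 0.314, 95% interval -0.30 to 1.04, edgeR adjusted p = 0.458) and with RYGB 0.04 (standard error 0.297, 95% interval -0.60 to 0.67, edgeR adjusted p = 0.979). Without GB-IL liver 1, the liver with pancreas and muscle markers, the value in GB-IL was -0.04 (edgeR adjusted p = 0.955). The part of these markers in its *Mylip* level was not tested. GB-IL and RYGB differed by 0.34 (95% interval -0.33 to 1.00), and by -0.08 without that liver.

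Across the 14 livers Pearson's r was above 0 in 11 of the 15 pairs of genes. Of 15 pairs, 0 passed a permutation test of Pearson's r of log2 CPM after Benjamini-Hochberg adjustment over the pairs, and 0 did after the group means were subtracted. The highest correlation was that of *Srebf2* with *Scap* (r = 0.71, permutation p = 0.00662, adjusted p = 0.0993; Spearman's rho = 0.70, permutation p = 0.00692, adjusted p = 0.104). With the group means subtracted it was 0.64 (permutation p = 0.0418, adjusted p = 0.287), and without the 2 livers farthest from the median of *Srebf2* it was 0.84. *Srebf2* with *Insig1* gave r = 0.64 (permutation p = 0.0159, adjusted p = 0.112) and rho = 0.53 (permutation p = 0.0529, adjusted p = 0.209). Within groups this was 0.50, and without the 2 farthest livers 0.66.

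*Insig1* with *Stard4*, both targets of SREBP-2, gave r = 0.62 (permutation p = 0.0224, adjusted p = 0.112) and rho = 0.51 (permutation p = 0.0667, adjusted p = 0.209). With the group means subtracted r was 0.66 (permutation p = 0.0277, adjusted p = 0.287) and rho 0.78 (permutation p = 0.00293, adjusted p = 0.0440). Without the 2 livers farthest from the median of *Insig1* r was 0.57, and without GB-IL livers 1 and 2 it was 0.80. The highest value of *Insig2* was with *Mylip* (r = 0.56, permutation p = 0.0339, adjusted p = 0.127; rho = 0.57, permutation p = 0.0373, adjusted p = 0.209), and r was 0.42 without the 2 livers farthest from the median of *Insig2*, GB-IL liver 1 and RYGB liver 3. *Mylip* had negative values with *Stard4* (r = -0.46, permutation p = 0.101, adjusted p = 0.217) and with *Scap* (r = -0.36, permutation p = 0.221, adjusted p = 0.414). *Insig1* and *Insig2* gave r = 0.46 (permutation p = 0.10, adjusted p = 0.217), and the difference of this from the value of *Insig2* with *Mylip* was not tested.

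**Figure D4:**
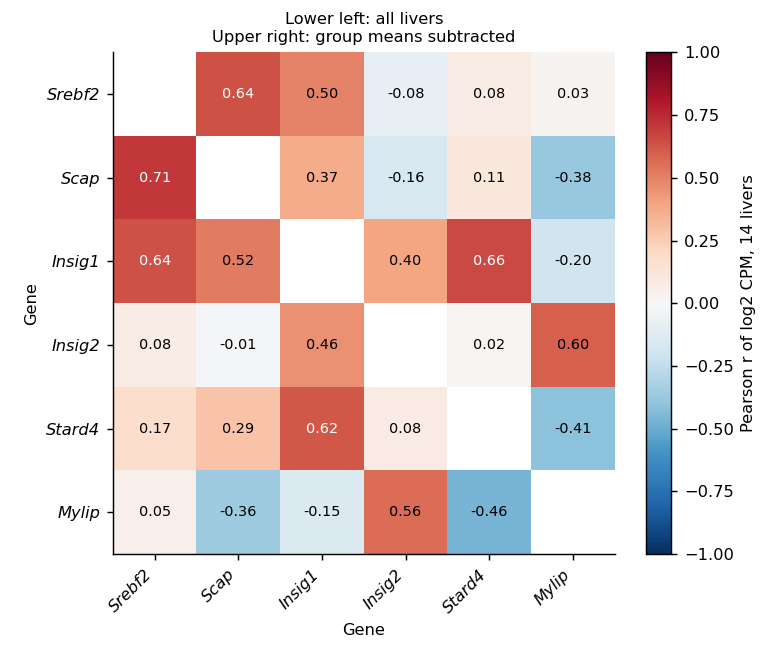
Pearson correlation of log2 CPM between each pair of the genes over 14 livers, below the diagonal with all livers as they are and above it with the mean of each group subtracted; red is positive and blue negative. *Srebf2*, *Scap* and *Insig1* correlate positively with each other, *Insig1* with *Stard4* and *Insig2* with *Mylip*.

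The genes most alike to each of the 6 were sought among the 12695 genes with a mean of at least 1 CPM, by Pearson's r of log2 CPM over the same 14 livers, as a description with no test. For *Srebf2* they were *Mvk* (r = 0.90), mevalonate kinase of the cholesterol pathway, *C630043F03Rik* (0.87) and *Lss* (0.87), lanosterol synthase. For *Insig1* they were *Rdh11* (0.95), a retinol dehydrogenase, and 2 enzymes of the cholesterol pathway, *Hmgcs1* (0.91) and *Fdft1* (0.89). For *Stard4* they were *Gm13502* (0.90), *Tbce* (0.87), a tubulin folding cofactor, and *Sc5d* (0.87), sterol C5 desaturase.

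*Scap* was most like *Slc39a4* (r = 0.81), a zinc transporter, *Wbscr27* (0.78) and *Mvk* (0.75). *Insig2* was most like *St5* (0.86), *Ccng2* (0.85), a cyclin of resting cells, and *Slc16a1* (0.84), a monocarboxylate transporter. *Mylip* was most like *Plcb4* (0.90), a phospholipase C, *Rbm12* (0.89) and *Tex10* (0.88), with Spearman's rho of 0.74, 0.69 and 0.70. GB-IL liver 1, with pancreas and muscle markers, had the highest *Mylip* level, and its part in this order was not tested. *Srebf2*, *Scap*, *Insig1* and *Stard4* each had at least 1 enzyme of cholesterol synthesis among the 3 closest genes, and *Insig2* and *Mylip* had 0. All of these correlations share the libraries and their scaling.

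The pathway around the 6 genes was read from 5 lists of well-known genes, none of which includes the 6. The lists were chosen with earlier results of these data known. The study itself had named cholesterol biosynthesis among the pathways most changed in RYGB in its RNA sequencing. The counts below therefore describe the lists and are not independent evidence. In the list of 20 cholesterol synthesis enzymes that SREBP-2 switches on 19 were tested. In GB-IL 18 of 19 had a positive log2 fold change, as did 53.1% of all genes tested, and the median was 0.72. An unadjusted p below 0.05 was found for 4 of 19, no larger a share than the 23.1% of all genes, and 0 passed the FDR by edgeR's quasi-likelihood test. In RYGB 18 of 19 were positive, as were 51.5% of all genes, with a median of 1.19. There 13 of 19 had an unadjusted p below 0.05, beside 8.71% of all genes, and 0 passed the FDR by the same test. DESeq2 called 2 in GB-IL and 2 in RYGB, and edgeR's exact test 2 and 0. The median of these enzymes was larger than that of the 6 sensing genes in both comparisons, although the 2 sets were not tested against each other. Between GB-IL and RYGB 5 of 19 were higher in GB-IL and the median was -0.30.

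The enzymes with the smallest p-values are the ones named. *Sqle*, squalene epoxidase and a rate-limiting step, had mean levels of 32.4 CPM in DIO, 117 CPM in GB-IL and 126.2 CPM in RYGB, log2 fold changes of 1.85 (standard error 0.579, edgeR adjusted p = 0.0892) and 1.96 (standard error 0.560, edgeR adjusted p = 0.383). *Mvk* had 1.59 in GB-IL on the log2 scale (standard error 0.546, edgeR adjusted p = 0.112). *Idi1*, isopentenyl diphosphate isomerase, had 90.0 CPM in DIO, 148 CPM in GB-IL and 360 CPM in RYGB, with a log2 fold change of 2.00 in RYGB (standard error 0.578, edgeR adjusted p = 0.383). For GB-IL against RYGB *Idi1* differed by -1.28 (edgeR adjusted p = 0.231) and *Dhcr7*, the last enzyme of one branch of the pathway, by -0.83 (edgeR adjusted p = 0.290).

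The 16 other genes of SREBP processing and sterol sensing in the endoplasmic reticulum, all tested, had medians of -0.11 in GB-IL and -0.01 in RYGB, with 6 and 8 of 16 positive and 0 past the FDR by edgeR's quasi-likelihood test in either. At an unadjusted p below 0.05 there were 1 higher and 1 lower in GB-IL and 0 in RYGB, below the shares of all genes. DESeq2 called 1 in GB-IL and 0 in RYGB, and edgeR's exact test 0 in both. *Tmem97*, a sterol-regulated receptor, had 0.91 in GB-IL on the log2 scale (edgeR adjusted p = 0.103), and *Paqr3*, which tethers SCAP to the Golgi, -0.82 (edgeR adjusted p = 0.0973). For each of these genes the GB-IL and DIO livers did not overlap, as was so for 4.17% of all genes. In RYGB the smallest p-values were those of *Rnf145*, a ubiquitin ligase that acts on SCAP (0.49, edgeR adjusted p = 0.573), and *Mbtps2*, the protease that makes the second cut in SREBP (0.24, edgeR adjusted p = 0.730). Between GB-IL and RYGB 3 of 16 were higher in GB-IL, with a median of -0.23. *Paqr3* differed there by -0.68 (edgeR adjusted p = 0.169) and *Tmem97* by 0.55 (edgeR adjusted p = 0.286).

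Among 12 tested genes of intracellular sterol transport and esterification, in which *Stard4* works, medians were 0.03 in GB-IL and 0.15 in RYGB, and 0 passed the FDR by edgeR's quasi-likelihood test in any comparison. DESeq2 called 1 in each of the 3 comparisons, and edgeR's exact test 2 in GB-IL, 0 in RYGB and 1 in GB-IL against RYGB. *Npc2*, the soluble cholesterol carrier of lysosomes, had 0.78 in GB-IL on the log2 scale (edgeR adjusted p = 0.0880), and *Gramd1a*, a sterol carrier at membrane contacts, of 0.84 (edgeR adjusted p = 0.0951). With *Npc2*, the macrophage and Kupffer cell markers summed to between 372 and 1635 CPM in GB-IL and between 334 and 590 CPM in DIO, and their part was not tested. In RYGB *Osbpl2*, an oxysterol-binding protein, differed by -0.49 (edgeR adjusted p = 0.331), and *Stard5* by -0.35 (edgeR adjusted p = 0.572). All RYGB livers lay below all DIO livers for *Osbpl2*, where 3.53% of all genes did not overlap between these groups. Between GB-IL and RYGB the median was 0.29, *Npc2* differed by 0.86 (edgeR adjusted p = 0.101) and *Gramd1c* by -0.87 (edgeR adjusted p = 0.137).

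Of the LXR targets, a set that includes *Mylip* in other tissues, 10 further genes were tested. Their medians were -0.12 in GB-IL and -0.05 in RYGB, with 4 and 3 of 10 positive and 0 past the FDR by edgeR's quasi-likelihood or exact test. DESeq2 called 1 in GB-IL and 0 in RYGB. *Arl4c*, a small GTPase, had log2 fold changes of 0.71 in GB-IL (edgeR adjusted p = 0.104) and 0.57 in RYGB (edgeR adjusted p = 0.517). Its GB-IL and DIO livers did not overlap, as was so for 4.17% of all genes. *Pltp*, the phospholipid transfer protein, had 0.67 in GB-IL (edgeR adjusted p = 0.169), and *Abcg1*, a cholesterol exporter, 0.71 in RYGB (edgeR adjusted p = 0.609). Between GB-IL and RYGB the median was 0.00, *Pltp* differed by 0.68 (edgeR adjusted p = 0.181), and *Srebf1*, the sister gene of *Srebf2*, by -0.85 (edgeR adjusted p = 0.307).

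In the list of 8 MYLIP partners and lipoprotein receptors 7 were tested, with medians of 0.10 in GB-IL and 0.01 in RYGB and 0 past the FDR by either edgeR test or DESeq2. *Snx17*, a sorting nexin that recycles lipoprotein receptors, had 0.48 in GB-IL (edgeR adjusted p = 0.174), and *Ube2d2a*, of the family of conjugating enzymes that serve MYLIP, 0.24 (edgeR adjusted p = 0.292). *Usp2*, a deubiquitinase of MYLIP, differed by -1.70 in RYGB (standard error 0.792, edgeR adjusted p = 0.572) and *Ube2d1* by 0.28 (edgeR adjusted p = 0.744). Between GB-IL and RYGB the median was 0.21, *Snx17* differed by 0.54 (edgeR adjusted p = 0.152) and *Vldlr*, a receptor that MYLIP also degrades, by -1.19 (edgeR adjusted p = 0.359).

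**Figure D5:**
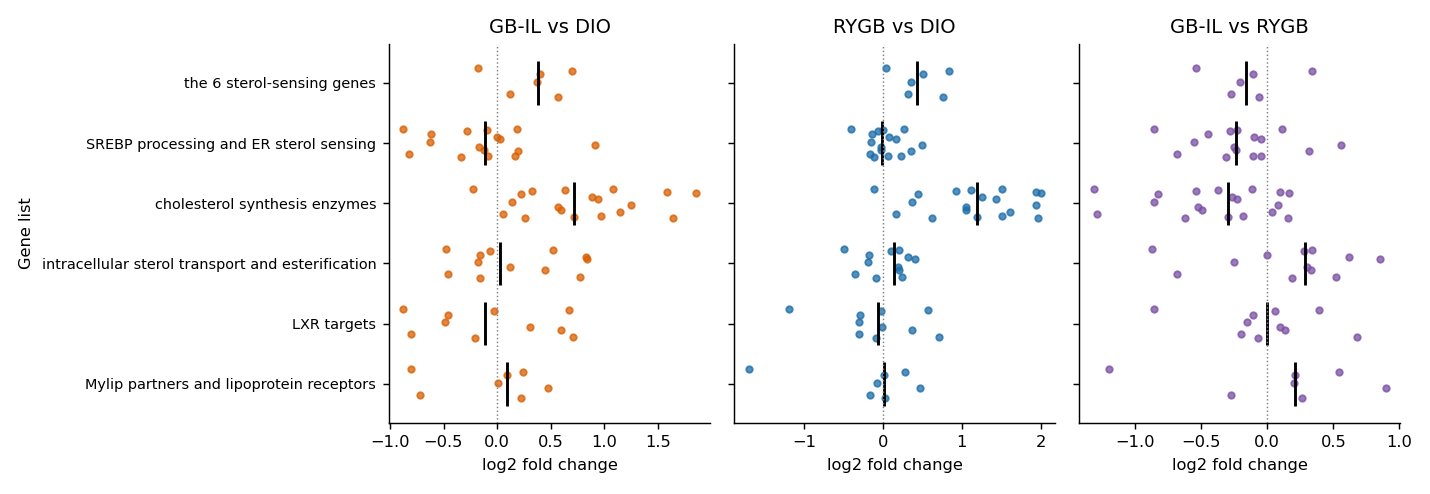
Log2 fold change (edgeR) of the 6 genes and of each tested gene of the 5 pathway lists in the 3 comparisons, each point a gene and each black bar the median of its list; the axes of the panels differ in range. The cholesterol synthesis enzymes have the highest medians in both operations compared with DIO, 0.72 and 1.19, and the other lists have medians between -0.12 and 0.15 there.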

How the data were processed

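RNA of 14 livers was sequenced, 1 library per liver (5 DIO, 4 GB-IL, 5 RYGB). Per the study's methods and the labels, the authors aligned reads to mm10 with TopHat2 and counted them per gene with HTSeq, and what they deposited is these raw counts. Their versions, the annotation and the strand setting are not stated in the methods or labels. Of the 2 library kits in the labels (mRNA and total RNA) none is tied to a liver, so kit was no term in the models. The part of the kit in differences between livers or groups was not tested.

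For the tests, edgeR 4.0.16 was used in R 4.3.3 (filterByExpr by group, TMM, quasi-likelihood test, robust estimation off), beside DESeq2 1.42.0 and limma 3.58.1. Ratios, correlations and promoters were handled with scipy 1.17.1, pandas 2.3.3 and numpy 2.4.6 in Python 3.11.15. The fit was tried on simulated counts in which 200 genes had a log2 fold change of 2, and it recovered 158 to 162 of them. The simulated spread per gene was the same in all groups, and the changes were larger than those of the 6 genes. It therefore does not show whether changes of their size would be found. Log2 CPM carried a prior count of 2, and correlations used 100000 permutations. Total counts per liver were 18440676 to 21473005 in DIO, 19231679 to 26131278 in GB-IL and 18223135 to 28656631 in RYGB. Intervals are for the log2 fold change between groups and rest on the spread between livers. Within groups the most similar pair of livers differed by a chi-square of 25.2 per degree of freedom and each was counted as 1 sample. Of the gene identifiers, 24701 matched GENCODE M21. Besides the 6 genes, the text names, in each list, the 2 genes with the smallest p in each comparison, and the 3 genes most alike to each of the 6. The 6 genes and all lists were chosen with earlier results of these data known. Same-numbered livers were not treated as pairs, since 2 of 13 such pairs correlated above 0.1 (range -0.38 to 0.38).

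The alternatives tried were scaling by RLE or by the upper quartile, DESeq2, edgeR's exact test, voom with sample quality weights, robust estimation, dropping the filter, requiring a mean count of 50, the 2 compared groups alone, the replicate number as a block, each liver left out, medians for the ratios and, added after the values had been seen, GB-IL livers 1 and 2 left out.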

Additional observations from a re-analysis of the deposited data

Results flagged for a closer look

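In groups of 4 or 5 livers, 24 sets of values (the 6 genes and both ratios in 3 groups, on the log2 scale) were examined for a liver far from the rest by Dixon's criterion, by which chance marks about 1 set in 20. Both that passed were in GB-IL. For *Mylip*, GB-IL liver 1 (33.9 CPM) lay apart from 14.3 to 15.01 CPM in the others, with a gap to the nearest liver of 0.946 of the whole range. For *Stard4*, GB-IL liver 4 (129 CPM) lay apart from 60.2 to 64.8 CPM, with a gap of 0.904 of the range. GB-IL liver 1 also held the pancreas and skeletal muscle markers (1228 and 1047 CPM), and GB-IL liver 4 was the GB-IL liver with the lowest cholangiocyte sum (60.2 CPM, against 205 to 297 CPM in the others). The part of these in either gene was not tested.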

How the results depend on the processing

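The tests left 0 of the 6 genes past the FDR in every alternative but these: with voom and sample quality weights 4 passed in RYGB against DIO, and without GB-IL liver 4 *Stard4* (1 gene) passed in GB-IL against RYGB. Leaving out each liver in turn otherwise gave 0. Of 450 recomputed log2 fold changes of the 6 genes (25 alternatives, 3 comparisons), 419 kept their direction and their side of the FDR, 5 passed it and 26 changed sign, none of them in a value past the FDR. The cause of these shifts was not tested.

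With voom and sample quality weights *Scap* (-0.0075), *Insig2* (-0.083) and *Mylip* (-0.0194) changed sign in GB-IL against DIO and *Mylip* (-0.21) in RYGB against DIO. The replicate number as a block turned *Mylip* in RYGB to -0.0177, changed no other sign, and gave 0 calls among the 6 genes; it left 1 of all genes called in GB-IL against DIO. Without GB-IL livers 1 and 2, values in GB-IL against DIO were -0.11 for *Srebf2*, -0.12 for *Scap*, 0.0703 for *Stard4* and -0.0542 for *Mylip*, and *Mylip* differed from RYGB by -0.0948. With medians in place of means, the *Insig1* to *Insig2* log2 ratio of GB-IL against RYGB was 0.26.

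With each liver left out in turn, log2 fold changes in GB-IL against DIO ranged from -0.0391 to 0.20 for *Scap*, -0.0537 to 0.78 for *Insig2*, -0.53 to 0.0533 for *Stard4* and -0.0416 to 0.49 for *Mylip*, and in RYGB against DIO from -0.20 to 0.20 for *Mylip*. In GB-IL against RYGB they ranged from -0.30 to 0.13 for *Srebf2*, -0.47 to 0.00939 for *Insig1*, -0.57 to 0.13 for *Insig2* and -0.0815 to 0.58 for *Mylip*. In that comparison the log2 ratio of *Insig1* to *Insig2* differed by -0.48 to 0.24, and that of their sum to *Scap* by -0.31 to 0.19.

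The number of all genes called moved more. In GB-IL against DIO the 465 genes became 1292 with DESeq2, 1127 with edgeR's exact test, 0 with the 2 groups alone, 0 without GB-IL livers 1 and 2, and 0 to 3572 with each liver left out. In RYGB against DIO the 0 genes became 97 with DESeq2, 43 with the exact test, 1690 with voom, 33 with the 2 groups alone and 0 to 5 with each liver left out. In GB-IL against RYGB the 0 genes became 845 with DESeq2, 678 with the exact test, 115 with voom, 51 without a filter and 0 to 3120 with each liver left out. No alternative varied the depth; the 6 genes had at least 160 counts in each liver.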
